A study of Sus scrofa with 8 samples.

Results

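NANOG, DPPA3, GDF3 and SLC2A3 were followed here as one chromosomal neighbourhood in pig cells, through the histone mark H3K27ac. The loci were found by gene symbol in the pig RefSeq annotation (Sscrofa11.1), each taken with 10 kb on either side. The 4 symbols gave 5 annotated genes, because NANOG is listed on chromosome 5 and again on chromosome 1, out of 16315 protein-coding genes analysed. The tested cells, pgEpiSC, were pig pre-gastrulation epiblast stem cells, labelled as embryonic epiblast of embryonic day 10, with H3K27ac libraries numbered 1 and 4. The cells they were set against, pEF, were porcine embryonic fibroblasts labelled as fetal, day 30, with H3K27ac libraries numbered 1 and 2. The labels name no transgene, drug or strain for either type. Whether the libraries of a type came from separate lines, animals or cultures is not in the labels. The p-values therefore rest only on the spread between these libraries, pooled in part over genes, and that spread may be technical.

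H3K27ac is histone H3 acetylated on a lysine of its tail, a mark that sits on active promoters and enhancers. NANOG is a homeodomain transcription factor of the pluripotency network, and GDF3 is a TGF-beta family ligand that, like NODAL, acts through activin receptors with the co-receptor TDGF1. DPPA3, known in mouse as Stella, is a maternal and germ cell factor that holds back maintenance DNA methylation by acting on UHRF1, and SLC2A3 encodes the glucose transporter GLUT3. In human and mouse these genes lie beside each other, and the region around NANOG is known there for enhancers used in pluripotent cells.

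The mark was given as islands, stretches where ChIP reads cluster, listed for each library with the ChIP and input reads inside and the authors' fold over input. The 4 lists held 64620 and 74208 islands for pgEpiSC 1 and 4, and 62261 and 57790 for pEF 1 and 2. ChIP reads inside islands numbered 29679982 and 38230571 in pgEpiSC, against 42444995 and 46383051 in pEF. Islands stood less far above input in pgEpiSC, with a median fold of 1.80 and 1.67, against 3.47 and 3.46 in pEF, and they were longer, with a median of 4.8 and 4.2 kb against 3.0 and 3.2 kb. The part of this difference in the lengths below was not tested. Where a list has no island, the locus was below the caller's limit, which does not mean that it carried no acetylation: the smallest islands of pEF held 32 and 38 ChIP reads. In these bulk libraries, fewer cells carrying the mark and less mark per cell cannot be told apart. In the length fit given below, all 9 of 9 epiblast markers (among them POU5F1, SOX2 and CDH1) were longer in pgEpiSC, as were 31.9% of all genes. Of 9 fibroblast markers 6 were longer in pEF, as were 10.9% of all genes. COL1A2, COL3A1, TWIST1 and LUM had no island in either pgEpiSC library. PRRX1, PDGFRB and THY1 did not pass, and PDGFRB had the higher mean in pgEpiSC, 31.3 against 27.7 kb. With islands under 2-fold left out, 7 epiblast markers were longer in pgEpiSC and 8 fibroblast markers in pEF. Centring on the median gene gave 9 and 7.

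The NANOG gene of chromosome 5 (GeneID 106507523) lay in the neighbourhood, between NANOGNB and SLC2A3. Along the chromosome the genes named here ran MFAP5, APOBEC1, GDF3, DPPA3, NANOGNB, NANOG, SLC2A3 and FOXJ2. NANOG was 24.5 kb from SLC2A3, 26.3 kb from NANOGNB, 63.5 kb from DPPA3 and 89.8 kb from GDF3. It spans 7.445 kb with 2 annotated transcripts. The other entry (GeneID 100170132) spans 1.159 kb with 1 transcript and lies on chromosome 1 within the span of THSD4, 313 kb and 263 kb from that gene's ends. GDF3 (GeneID 100510963) spans 5.902 kb, DPPA3 (GeneID 100511328) 6.64 kb and SLC2A3 (GeneID 100626468) 78.3 kb. How reads that match both NANOG entries were treated is not given in the sources used here, and no sequence of either was used here. The annotation table gives no strand, so positions are given from the ends of genes and not from transcription starts.

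Between the outer ends of GDF3 and SLC2A3, a stretch of 206 kb, islands covered most bases in pgEpiSC and few in pEF. The covered share was 84.7% in pgEpiSC 1 and 77.7% in pgEpiSC 4, against 21.6% in pEF 1 and 19.2% in pEF 2. In pEF most of the covered length lay in the body of SLC2A3, 42.2 of 44.6 kb in pEF 1 and 37.2 of 39.6 kb in pEF 2. From GDF3 through NANOG, 103.2 kb, islands covered 80.7% and 78.4% in pgEpiSC, against 2.33% and 2.33% in pEF. Over chromosome 5 as a whole the shares were 20.1% and 20.1% in pgEpiSC, against 12.6% and 12.9% in pEF. The stretch held 16 and 14 islands in pgEpiSC, the longest 32.8 and 31.4 kb, against 10 and 10 in pEF, the longest 12.2 and 7.2 kb. Enrichment ran the other way: over all islands of the stretch ChIP stood 2.55 and 2.41 times above scaled input in pgEpiSC, against 5.82 and 4.47 times in pEF. Only 7 of 16 and 6 of 14 islands reached 2-fold in pgEpiSC, against 10 of 10 and 9 of 10 in pEF, and the lowest pgEpiSC folds were 1.03 and 1.14. Input reads per kb of island were 39.2 and 42.0 in pgEpiSC, against 35.5 and 36.8 in pEF, near the chromosome 5 values of 38.0 and 42.0 against 40.4 and 37.3.

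**Figure D1:**
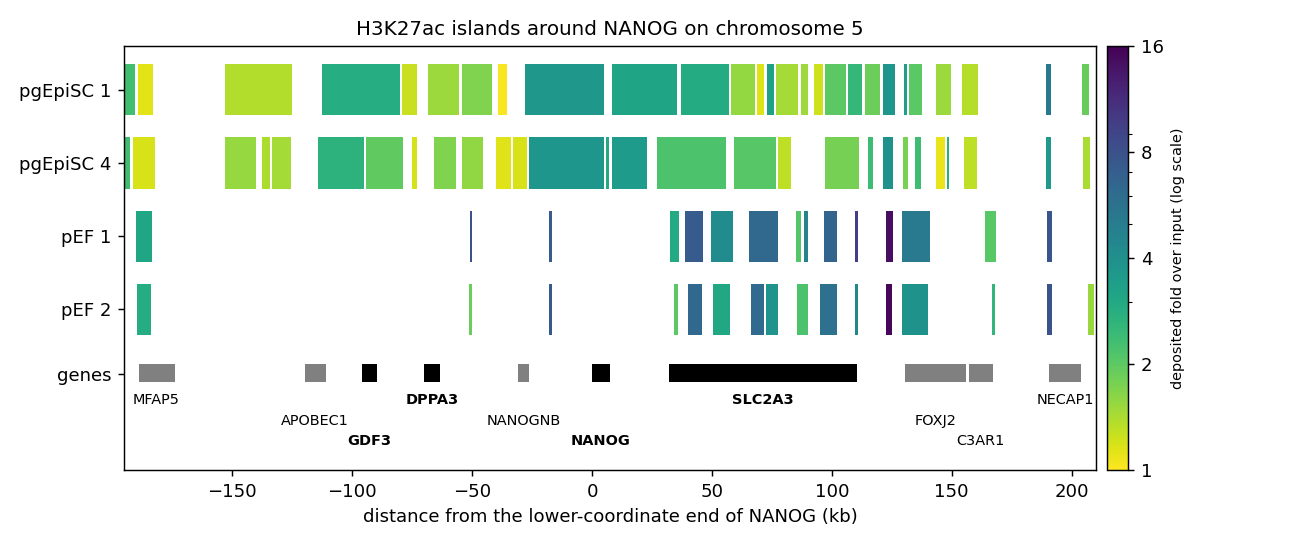
Islands of the 4 H3K27ac libraries around NANOG on chromosome 5, by distance in kb from its lower-coordinate end; colour is the deposited fold over input on a log scale, black bars are the 4 genes of the neighbourhood and grey bars other genes named in the text. Both pgEpiSC rows are mostly covered from GDF3 to SLC2A3, with gaps, among them a gap that reaches into DPPA3. The pEF rows hold a narrow island between DPPA3 and NANOGNB, another between NANOGNB and NANOG, and then a row of islands in SLC2A3.

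NANOG had 24.2 kb of its 27.4 kb window covered by islands in pgEpiSC 1 and 25.4 kb in pgEpiSC 4, against 0 kb in pEF 1 and 0 kb in pEF 2. The types did not overlap, and the pgEpiSC libraries differed by little, with a mean of 24.8 ± 0.849 kb (SD, n = 2). Most of this length came from one long island that began inside NANOGNB and reached into NANOG, at chr5:62903801-62936600 in pgEpiSC 1 and chr5:62905201-62936600 in pgEpiSC 4. It held 4747 ChIP and 1362 input reads in pgEpiSC 1, a deposited fold of 3.66, and 6337 ChIP and 1418 input reads in pgEpiSC 4, a fold of 3.74. Within each library's own list these folds stood at the 95.3 and 97.7 percentile of all islands. After a gap in NANOG itself, the next long island was chr5:62939801-62967200 in pgEpiSC 1, with a fold of 3.17, and chr5:62939801-62954600 in pgEpiSC 4, with a fold of 3.52. The gap was 3.2 kb in pgEpiSC 1, while pgEpiSC 4 had a 1.2 kb island inside it. The gene's own span was therefore covered less completely than its flanks, at 66.6% and 82.7% in pgEpiSC, against 0% and 0% in pEF.

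In pEF the nearest island to NANOG was 16.6 and 16.8 kb away, at chr5:62913601-62915000 in pEF 1 and chr5:62913801-62914800 in pEF 2. It lay inside the span of the long pgEpiSC island, was 1.4 and 1.0 kb long and held 279 and 298 ChIP reads, with folds of 7.28 and 7.45. Its depth-scaled density, ChIP reads per kb divided by the library's ChIP reads in islands in units of 1000000, was 4.70 and 6.42 in pEF, beside 4.88 and 5.28 for the long islands of pgEpiSC. The ranges of this density overlapped, while the island lengths did not. The merged region chr5:62898801-62936600, which runs from the NANOGNB side into NANOG, had islands in all 4 libraries and so could be tested on reads. Its islands held 4747 and 6713 ChIP reads over 32.8 and 37.0 kb in pgEpiSC, against 279 and 298 reads over 1.4 and 1.0 kb in pEF. The summed island reads gave a log2 ratio of 4.72 (edgeR quasi-likelihood, adjusted p = 0.00130 over 20498 regions). Reads outside a library's own islands are not in the lists and count as 0, so this ratio follows the called length and is no fold change of reads over a common interval, nor is it separate from the length result. Of those regions 22.7% had higher sums in pgEpiSC and 23.4% in pEF, or 5689 and 3752 regions without TMM scaling.

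The length fit gave NANOG a log2 fold change of 4.69 ± 0.16 (SE, on log2 of kb + 1; limma, adjusted p = 0.00290). GDF3 and DPPA3, given next, and SLC2A3 were also longer in pgEpiSC, so 4 of the 4 genes on chromosome 5 passed. Of all 16315 genes 31.9% were longer in pgEpiSC and 10.9% in pEF, with a median log2 fold change of 0.46, so longer acetylation in pgEpiSC was common. Centring on the median gene was done over the 15705 genes with an island in any library. It lowered every value by 0.63 and gave 3589 genes longer in pgEpiSC and 3857 in pEF. NANOG, GDF3 and DPPA3 had no island in either pEF library, like 9.43% of all genes, and islands in both pgEpiSC libraries as well, like 4.46%. By log2 fold change GDF3 ranked 138, NANOG 144 and DPPA3 301 of 16315. For a gene at 0 the fitted value depends on the 1 kb added before the log and is no bound on the difference: with 0.2 kb added, NANOG stood at 6.97. A gene at 0 in both pEF libraries shows no spread there, so its SE and p-value lean on the variance of other genes.

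GDF3 was the most completely covered of these genes. Islands took up 25.5 kb of its 25.9 kb window in pgEpiSC 1 and 25.1 kb in pgEpiSC 4, against 0 kb in both pEF libraries, whose nearest islands were 39.0 and 38.6 kb away. The types did not overlap, and the pgEpiSC values, 25.3 ± 0.264 kb (SD, n = 2), stood close to the largest the window allows. In pgEpiSC 1 one island, chr5:62819001-62851400, covered GDF3 and reached APOBEC1, with a fold of 2.86. In pgEpiSC 4 the same ground was split into chr5:62817401-62836600, with a fold of 2.70, and chr5:62837401-62852800, with a fold of 1.97. The log2 fold change was 4.72 ± 0.16 (SE; limma, adjusted p = 0.00290). The region chr5:62817401-62858800 held 3556 and 4077 ChIP reads in pgEpiSC, against no island in pEF, so no test on reads was made there.

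DPPA3 was covered less, and less evenly. Its window of 26.6 kb held 19.7 kb of islands in pgEpiSC 1 and 13.2 kb in pgEpiSC 4, against 0 kb in both pEF libraries. The types did not overlap, but the pgEpiSC libraries stood further apart here than at NANOG or GDF3, at 16.5 ± 4.59 kb (SD, n = 2). The islands on the gene were also weak: chr5:62863401-62876200 in pgEpiSC 1 had a fold of 1.51 and chr5:62865601-62874800 in pgEpiSC 4 a fold of 1.70. Their 792 and 765 ChIP reads stood over 549 and 376 input reads. The log2 fold change was 4.10 ± 0.25 (SE; limma, adjusted p = 0.00542). Between DPPA3 and NANOGNB, region chr5:62877601-62889800 held 726 and 737 ChIP reads over 12.2 and 8.6 kb of islands in pgEpiSC, against 148 and 108 reads over 1.0 and 1.4 kb in pEF. The log2 ratio of these sums was 2.94 (edgeR, adjusted p = 0.00326), which follows the called lengths as at NANOG. With islands under 2-fold left out DPPA3 had no island in any library, and leaving out pEF 1 or pEF 2 gave an adjusted p of 0.0547 or 0.0549.

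Since DPPA3 is a germ cell gene as well as a gene of the pluripotent state, the primordial germ cell markers are given beside it. Over all genes 31.9% were longer in pgEpiSC and 10.9% in pEF (limma). Of the 5 markers measured, DAZL, TFAP2C and KIT were longer in pgEpiSC, PRDM1 was longer in pEF and DDX4 did not pass. Their summed length was 97.0 and 82.4 kb in pgEpiSC, against 22.3 and 29.3 kb in pEF. DDX4, a helicase of later germ cells, had 3.8 and 1.2 kb in pgEpiSC, against 0 kb in both pEF libraries. With islands under 2-fold left out, none of the 5 was longer in pgEpiSC. The part of germ cell-like cells in the DPPA3 result was not tested.

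SLC2A3 was acetylated in both types. Islands covered 86.2 kb of its 98.3 kb window in pgEpiSC 1 and 68.4 kb in pgEpiSC 4, against 42.8 kb in pEF 1 and 37.6 kb in pEF 2. The types did not overlap, with 77.3 ± 12.6 kb in pgEpiSC and 40.2 ± 3.68 kb in pEF (SD, n = 2 each), but the spread within pgEpiSC was wide. The enrichment over input ran the other way: over all islands at the locus it was 2.41 and 2.28 in pgEpiSC, against 5.74 and 4.50 in pEF. The strongest single island touching the window had a fold of 3.32 and 3.52 in pgEpiSC, against 9.65 and 6.36 in pEF; the one of pgEpiSC 4 is the island next to NANOG given above, which only just enters the flank and ends before SLC2A3. Those islands were at the 93.0 and 96.9 percentile of their own lists in pgEpiSC, against 91.2 and 80.1 in pEF. The log2 fold change in length was 0.92 ± 0.17 (SE; limma, adjusted p = 0.0310). That call was lost in each of 3 ways: on centring (0.29, adjusted p = 0.278), with islands under 2-fold left out (0.32, adjusted p = 0.181), and when any one library was left out (0.75 to 1.08, adjusted p = 0.0805 to 0.148).

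Reads summed over each library's islands can be set beside the lengths in sections of the SLC2A3 locus. From beyond NANOG into the gene, region chr5:62939801-63021800 held 6996 and 7516 ChIP reads over 75.2 and 66.2 kb of islands in pgEpiSC, against 5346 and 3925 reads over 36.2 and 29.4 kb in pEF. The log2 ratio of these sums was 1.07 (edgeR, adjusted p = 0.0200), again over unequal called lengths; without pgEpiSC 1 or pgEpiSC 4 the adjusted p was 0.112 or 0.0808. Part of this region lies between NANOG and SLC2A3, where islands covered 97.1% and 80.0% in pgEpiSC, against 0% and 0% in pEF. At the far end of the gene, region chr5:63024401-63044400 had 1422 and 1375 ChIP reads over 18.4 and 13.8 kb of islands in pgEpiSC, against 1384 and 1394 reads over 6.6 and 8.2 kb in pEF. Its log2 ratio of 0.45 did not pass (edgeR, adjusted p = 0.146).

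**Figure D2:**
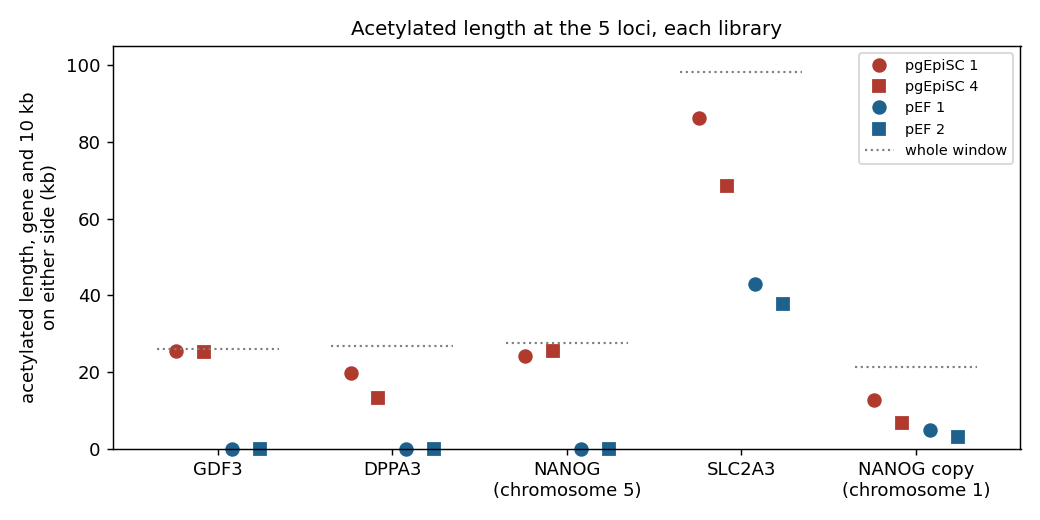
Acetylated length in kb, the part of the gene with 10 kb on either side that islands cover, in each of the 4 libraries; the dotted line is the whole window. GDF3, DPPA3 and NANOG on chromosome 5 are at 0 in both pEF libraries, SLC2A3 has 37.6 to 42.8 kb there, and the chromosome 1 NANOG copy has a short length in all 4.

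As a share of the window, pgEpiSC coverage was 98.4% and 96.9% at GDF3 and 88.3% and 92.7% at NANOG. It was 87.6% and 69.5% at SLC2A3, and 74.1% and 49.7% at DPPA3. The 10 kb on either side made up most of the window at every locus but SLC2A3. This order is therefore one of windows and not of gene bodies. GDF3 stood above NANOG in both libraries. NANOG and SLC2A3 were close in pgEpiSC 1 and apart in pgEpiSC 4, and the ranges of SLC2A3 and DPPA3 overlapped. In pEF the order was different, with SLC2A3 at 43.5% and 38.2%, the chromosome 1 copy at 22.7% and 14.2%, and the others at 0%. Over gene bodies alone, pgEpiSC coverage was 100% and 86.4% at GDF3 and 86.0% and 76.0% at SLC2A3. It was 66.6% and 82.7% at NANOG, and 71.25% and 38.1% at DPPA3. In pgEpiSC 1 NANOG was thus the lowest of these genes.

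Islands within 2 kb of either end of a gene gave the same division, where an island at a single end was enough. GDF3, DPPA3 and NANOG on chromosome 5 had one in both pgEpiSC libraries and in neither pEF library, a status held by 7.31% of all genes; the opposite status, held by 4.48%, was seen at 0 of the 5 loci. SLC2A3 had one in all 4 libraries, as did 67.8% of genes. The chromosome 1 copy had one in pgEpiSC 1 alone, and no locus was among the 10.2% of genes without one in any library. At DPPA3 the status rested on the higher-coordinate end. In pgEpiSC 4 no island lay within 2 kb of its other end, and in pgEpiSC 1 an island only just came within that distance.

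**Figure D3:**
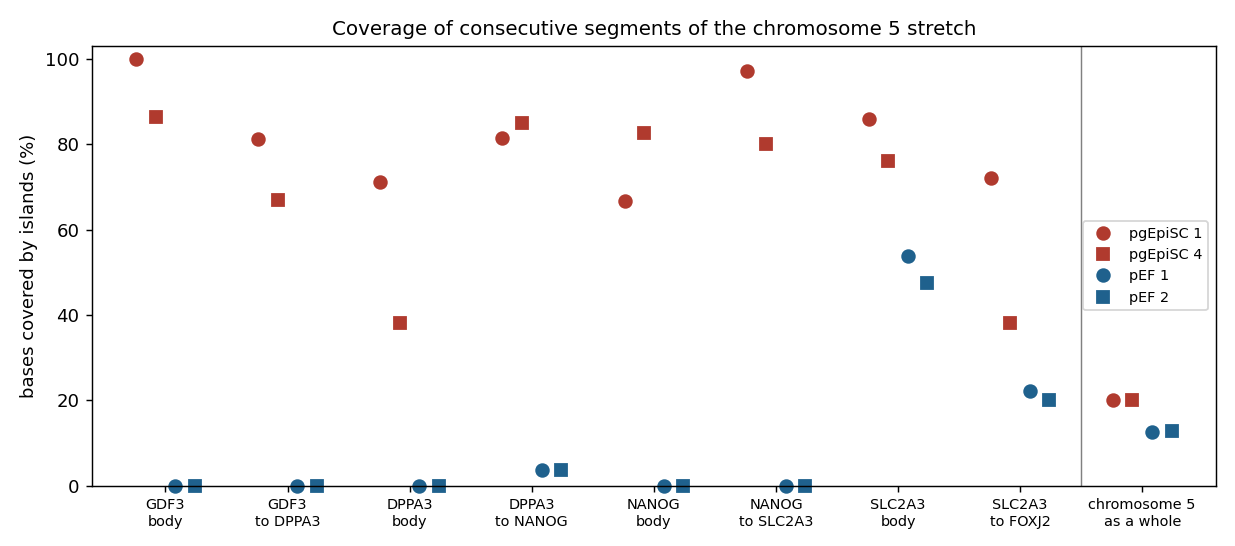
Percent of bases covered by islands in consecutive segments from GDF3 to FOXJ2, with chromosome 5 as a whole at the right, in each of the 4 libraries. The pEF points lie at 0% or at 3.78% up to the end of the NANOG to SLC2A3 segment and at 47.4% to 53.8% in the SLC2A3 body, while the pgEpiSC points of the segments range between 38.1% and 100%; chromosome 5 as a whole is at 20.1% in both pgEpiSC libraries, against 12.6% and 12.9% in pEF.

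The NANOG copy of chromosome 1 looked different from the gene on chromosome 5. No island touched its 1.159 kb span in any of the 4 libraries. Within 10 kb, islands covered 12.6 kb in pgEpiSC 1 and 6.8 kb in pgEpiSC 4, against 4.8 kb in pEF 1 and 3.0 kb in pEF 2. The lowest pgEpiSC value was above the highest pEF value, but the means of 9.70 ± 4.10 kb in pgEpiSC and 3.90 ± 1.27 kb in pEF (SD, n = 2 each) gave no call (log2 fold change 1.1 ± 0.42 SE; limma, adjusted p = 0.130). The direction was not stable: with 5 kb on either side the value was -0.60, and with islands under 2-fold left out it was -1.23. Nearest islands lay 1.93 and 5.71 kb away in pgEpiSC, against 2.31 and 2.31 kb in pEF.

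On one side of the copy, chr1:169067601-169070600 was an island in both pEF libraries, with folds of 5.86 and 2.80. There the merged region chr1:169067601-169074600 held 218 and 236 ChIP reads over 5.2 and 3.6 kb of islands in pgEpiSC, against 422 and 280 reads over 3.0 and 3.0 kb in pEF. Its log2 ratio of summed reads, -0.21, did not pass (edgeR, adjusted p = 0.662), and its sign turned without TMM scaling (0.028) and without pEF 1 (0.16). THSD4, the gene around the copy, encodes a thrombospondin-domain protein of the extracellular matrix. It was longer in pEF, with 103.2 and 83.8 kb in pgEpiSC, against 276.2 and 211.6 kb in pEF (log2 fold change -1.37; limma, adjusted p = 0.0267). Islands at the copy therefore lay within a gene that was itself acetylated in both types, and they cannot be assigned to either gene. A value under the bare symbol NANOG in these data depends on which entry is taken: the mean is 24.8 kb in pgEpiSC and 0 kb in pEF for the chromosome 5 gene, and 9.70 kb and 3.90 kb for the other.

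**Figure D4:**
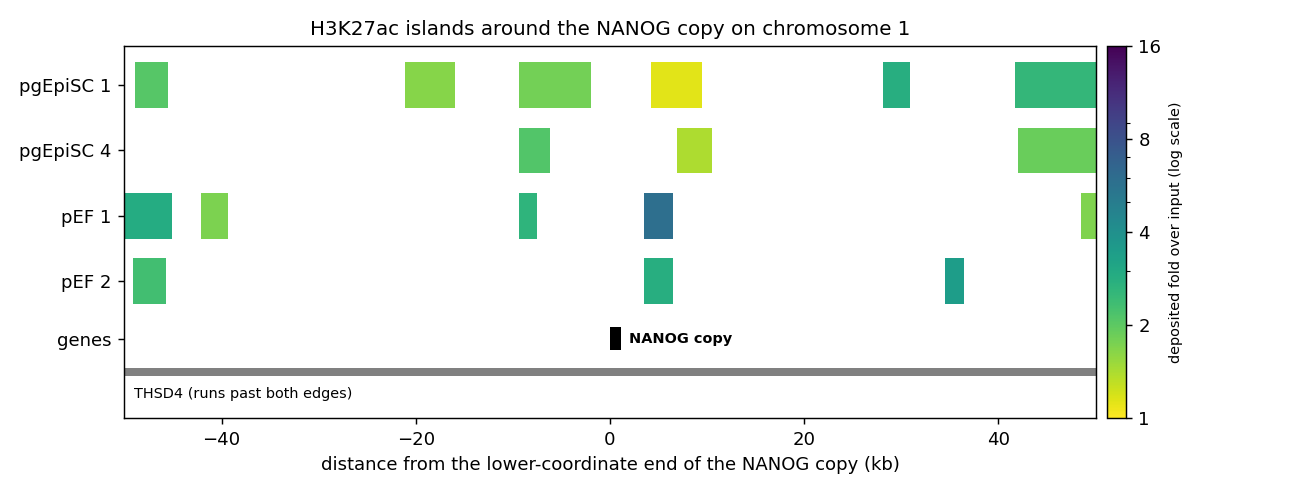
Islands of the 4 H3K27ac libraries around the NANOG copy on chromosome 1, by distance in kb from its lower-coordinate end; colour is the deposited fold over input on a log scale and the grey bar is THSD4. No island overlaps the copy, and short islands stand on both sides of it in pgEpiSC and pEF libraries.

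Other genes in the stretch and on its GDF3 side were also longer in pgEpiSC. The 11 genes tested from GDF3 to SLC2A3 and within 100 kb of them counted 8 longer in pgEpiSC, 0 in pEF and 3 that did not pass (limma). Over all genes the shares were 31.9% and 10.9%. The 8 include the 4 genes GDF3, DPPA3, NANOG and SLC2A3 themselves, so the count is no separate result. Neighbours also share islands, so these counts are not independent. NANOGNB, a homeobox gene next to NANOG, had 15.2 and 22.4 kb in pgEpiSC, against 1.4 and 1.0 kb in pEF. On the GDF3 side, APOBEC1, a cytidine deaminase gene, had 16.1 and 17.5 kb in pgEpiSC, against 0 kb in both pEF libraries. MFAP5, a microfibril gene farther out, had 15.1 and 15.5 kb in pgEpiSC, against 6.8 and 7.48 kb in pEF (log2 fold change 1.00; limma, adjusted p = 0.0163).

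Past SLC2A3 no tested gene within 100 kb passed. FOXJ2, a forkhead transcription factor gene, had 24.8 and 18.8 kb in pgEpiSC, against 16.5 and 13.4 kb in pEF, and did not pass (log2 fold change 0.51; limma, adjusted p = 0.142). C3AR1, a complement receptor gene, and NECAP1, a gene of clathrin-mediated endocytosis, did not pass either (limma, adjusted p = 0.176 and 0.397). C3AR1 had 9.02 and 6.62 kb in pgEpiSC, against 4.8 and 1.4 kb in pEF. Its log2 fold change of 1.23 ± 0.56 (SE) was above the 1.00 of MFAP5, which passed. NECAP1 had 4.8 and 5.0 kb in pgEpiSC, against 2.2 and 4.8 kb in pEF. An island shared by all 4 libraries lay between SLC2A3 and FOXJ2. Its folds were 3.73 and 3.95 in pgEpiSC, at chr5:63052801-63058000 and chr5:63053201-63057000, against 14.7 and 15.2 in pEF, at chr5:63054201-63057000 and chr5:63054201-63056600. These were at the 95.7 and 98.2 percentile of their own lists in pgEpiSC, against 97.9 and 98.9 in pEF.

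By Euclidean distance of log2(kb + 1) over the 4 libraries, the genes most like NANOG of chromosome 5 among 16310 others were LAMB3, BPIFB1, KLK12, CD74 and SVOP, at 0.0837 to 0.134. LAMB3, a laminin chain gene, had 23.0 and 26.2 kb in pgEpiSC, against 0 kb in both pEF libraries. The copy of chromosome 1 was most like MATN1, at 0.143.

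Among 22 genes of the pluripotency network around NANOG, 13 were longer in pgEpiSC, 1 in pEF and 8 did not pass (limma; 31.9% and 10.9% over all genes), with a median log2 fold change of 2.26 against 0.46 over all genes. ESRRB, an orphan nuclear receptor gene, had 98.8 and 95.5 kb in pgEpiSC, against 2.4 and 2.4 kb in pEF. TRIM71, which encodes an RNA-binding regulator, had 88.5 and 83.8 kb in pgEpiSC, against 1.2 and 1.4 kb in pEF. The zinc-finger genes PRDM14 and SALL4 had 37.2 and 40.0 kb, and 39.6 and 37.2 kb, in pgEpiSC, against 0 kb in both pEF libraries. The exception was TBX3, a T-box factor gene named after its values were seen, with 0 kb in both pgEpiSC libraries, against 19.6 and 18 kb in pEF. On centring, 13 were longer in pgEpiSC and 2 in pEF; with islands under 2-fold left out the counts were 10 and 2, and ESRRB did not pass (limma, adjusted p = 0.684).

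In GDF3 and NODAL signalling, 21 of 24 listed genes were measured: 10 were longer in pgEpiSC, 2 in pEF and 9 did not pass (limma; 31.9% and 10.9% over all genes), with a median log2 fold change of 0.94. SMAD2, an intracellular transducer of the pathway, had 73.2 and 68.4 kb in pgEpiSC, against 16.6 and 17.0 kb in pEF. SMAD3, its relative, was longer in pEF, with 76.8 and 82.6 kb in pgEpiSC, against 125.8 and 136.4 kb in pEF (log2 fold change -0.71; limma, adjusted p = 0.0242). The receptor gene BMPR1A had 102.7 and 97.4 kb in pgEpiSC, against 45.1 and 43.1 kb in pEF. LEFTY2, which encodes a secreted inhibitor of NODAL, was covered over its whole window of 24.4 kb in both pgEpiSC libraries, against 3.15 and 3.35 kb in pEF. NODAL itself and its co-receptor TDGF1, named after their values were seen, were longer in pgEpiSC. NODAL had 21.5 and 24.3 kb in pgEpiSC, against 4.0 and 3.84 kb in pEF. TDGF1 had 17.4 and 17.2 kb in pgEpiSC, against 2.53 and 1.6 kb in pEF. SKIL was the other of the 2 genes longer in pEF (limma, adjusted p = 0.0155). SKIL had 21.0 and 17.4 kb in pgEpiSC, against 39.6 and 38.8 kb in pEF, and was also named after its values were seen. Centring gave 7 longer in pgEpiSC and 4 in pEF, and leaving out islands under 2-fold gave 6 and 4, with BMPR1A no longer past the threshold (limma, adjusted p = 0.209).

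Of 13 genes tied to DPPA3 and DNA methylation, 7 were longer in pgEpiSC, 0 in pEF and 6 did not pass (limma; 31.9% and 10.9% over all genes), with a median log2 fold change of 0.66. The de novo methyltransferase genes DNMT3A and DNMT3B were among those with the largest differences in kb: DNMT3A had 120.8 and 113.0 kb in pgEpiSC, against 9.63 and 15.2 kb in pEF, and DNMT3B had 56.8 and 57.2 kb, against 10.6 and 8.68 kb. TET1, a 5-methylcytosine oxidase gene, had 56.9 and 60.5 kb in pgEpiSC, against 17.7 and 15.1 kb in pEF. ZFP57, whose product guards imprinted methylation, had 16.2 and 13.8 kb in pgEpiSC, against 0 kb in both pEF libraries. The maintenance genes UHRF1, the partner of DPPA3, and DNMT1 did not pass, at log2 fold changes of -0.43 and -0.94 (limma, adjusted p = 0.077 and 0.141). The balance of this list depended on the scaling: centring gave 4 longer in pgEpiSC and 3 in pEF, and leaving out islands under 2-fold gave 2 and 1, with DNMT3B and TET1 no longer past the threshold (limma, adjusted p = 0.0566 and 0.0986).

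Glucose transport and glycolysis genes are the functional company of SLC2A3. Of 29 measured, 7 were longer in pgEpiSC, 1 in pEF and 21 did not pass (limma; 31.9% and 10.9% over all genes), with a median log2 fold change of 0.19, below the 0.46 of all genes. SLC2A1, the gene of the widely used transporter GLUT1, had 34.4 and 34.6 kb in pgEpiSC, against 30.2 and 29.8 kb in pEF, and did not pass (log2 fold change 0.20; limma, adjusted p = 0.105). The fructose transporter gene SLC2A5 had 45.6 and 47.2 kb in pgEpiSC, against 12.2 and 6.8 kb in pEF. The hexokinase gene HK1 had 69.2 and 77.9 kb in pgEpiSC, against 35.6 and 27 kb in pEF, and SLC2A12 had 45.2 and 47.2 kb, against 24 and 19 kb; neither passed on centring. HIF1A, a regulator of glycolysis under low oxygen, was longer in pEF, with 23.9 and 19.6 kb in pgEpiSC, against 60.9 and 55.3 kb in pEF. With islands under 2-fold left out none of SLC2A5, HK1, SLC2A12 and HIF1A passed (limma, adjusted p = 0.0866, 0.125, 0.683 and 0.0556), and SLC2A12 turned to -0.37. The balance of this list turned with the processing: centring gave 4 longer in pgEpiSC and 5 in pEF, and leaving out islands under 2-fold gave 1 and 2.

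**Figure D5:**
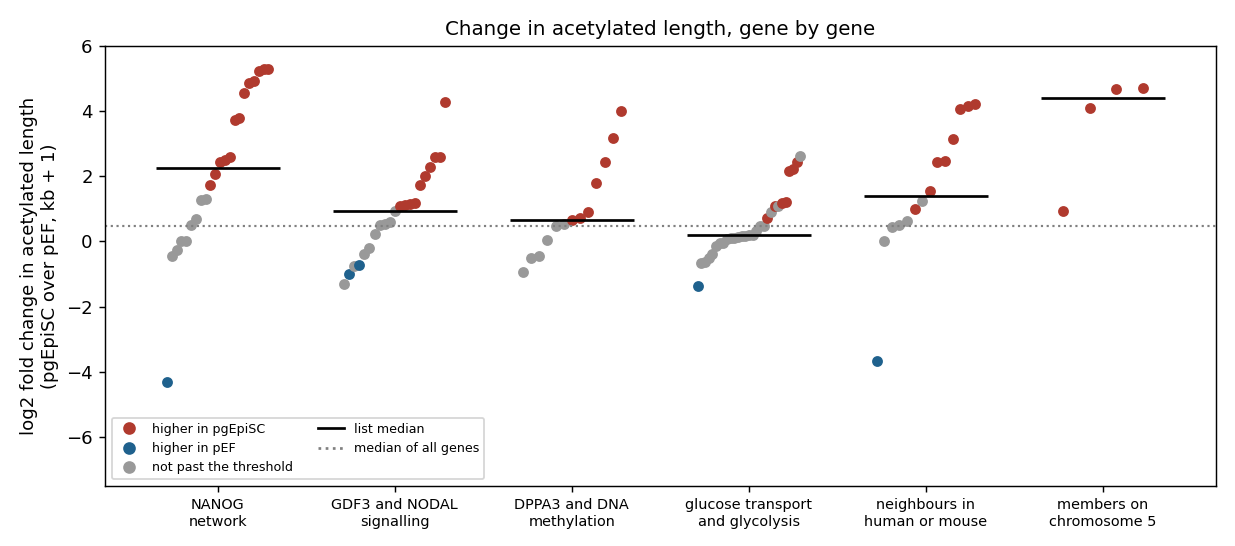
Log2 fold change in acetylated length (pgEpiSC over pEF, kb + 1) of each gene in 5 lists and of the 4 genes on chromosome 5; bars are list medians and the dotted line is the median of all genes at 0.46. The pluripotency network spreads up to above 5 with TBX3 at -4.31, while the glucose list centres at 0.19, with most genes not past the threshold.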

How the data were processed

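H3K27ac ChIP-seq of 2 pgEpiSC and 2 pEF libraries, each with its own input, was taken from 4 deposited island lists without headers, whose 8 columns match a SICER islands summary. Per the labels, DNA was sonicated to 200 to 500 bp and read as 150 bp pairs; per the submitters' processing notes, BWA 0.7.15, SAMtools 0.1.19 and SICER 1.1 were used. The deposited counts are raw ChIP and input reads per island, the deposited p-value columns are the p and FDR against input, and the deposited fold is the ratio of ChIP to scaled input reads. Every list holds islands with an FDR up to 1, so none was cut on FDR. Whole library depth, duplicate removal and mapping filters are not given in the sources used here. Islands are called in 200 bp windows with gaps joined, so length moves with depth and background. Island starts and ends were raised by 1 to count from 1.

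The files name no genome build. Their scaffold names and the overlap of gene ends with islands (above that 20 kb away on 19 of 19 chromosomes) were taken to match Sscrofa11.1. Its RefSeq table therefore gave gene names, order, spans and distances. Printed island coordinates are those of the island lists raised by 1, and merged regions join islands of several libraries. Genes with a LOC symbol were not tested, and 1 other gene is counted but not reported here by itself. The planned sequence features were not run, as no sequence was used here.

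Acetylated length, log2(kb + 1), was fitted with limma 3.58.1 (intensity trend) over all 16315 genes on chromosomes 1 to 18 and X (2 residual degrees of freedom). Islands overlapping by 1 bp were merged into regions, and for regions called in all 4 libraries the ChIP reads of the islands were summed and tested by edgeR 4.0.16 (quasi-likelihood, TMM; DESeq2 1.42.0 as an alternative). Both used cell type alone, Benjamini-Hochberg adjustment and a threshold of 0.05. Both were run on simulated data, but the simulated length changes did not bring a gene to 0 in a cell type. They therefore do not cover the case of NANOG, GDF3 and DPPA3 in pEF. Exact permutation of 2 against 2 libraries cannot go below p = 0.333, so none was used. Named genes were the 5 loci, all genes within 100 kb, up to 4 per list with the largest difference in kb, and the 5 most like NANOG; others named (MATN1 apart, from the same measure) were chosen after their values were seen. The genes and lists were chosen with earlier results of these data known. Python 3.11.15, R 4.3.3, numpy 2.4.6, pandas 2.3.3 and matplotlib 3.10.9 were used.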

Additional observations from a re-analysis of the deposited data

How the results depend on the processing

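NANOG of chromosome 5 and GDF3 kept their direction and their call in the length fit under all alternatives run (pseudocount, flank, FDR below 1e-10, 2-fold islands, centring, low-length filter, each library left out), with log2 fold changes of 3.98 to 6.97 and 4.04 to 6.99; the read sums next to NANOG, which follow the called length, also stayed past the threshold. DPPA3 was at 0 in every library with islands under 2-fold left out, so its value was 0 with no direction (adjusted p = 1), and the pgEpiSC libraries with an island at its ends were also 0; it kept its direction in the other settings, and leaving out 1 library gave 3.83 to 4.37, past the threshold without either pgEpiSC library and not without either pEF library. SLC2A3 was 0.32 with 2-fold islands, 0.29 on centring and 0.75 to 1.08 with 1 library left out, none past the threshold; its region gave 0.83 to 1.35 with 1 library left out. The chromosome 1 copy, not called in any setting, reversed to -0.60 with a flank of 5 kb and to -1.23 with 2-fold islands; its region was 0.028 without TMM scaling and -0.50 to 0.16 with 1 library left out. Its pgEpiSC libraries with an end island were 0 with a window of 1 kb, an overlap of 500 bp or 2-fold islands. The cause was not tested in any of these. Genes longer in pgEpiSC and in pEF numbered 1152 and 2696 with 2-fold islands, 3589 and 3857 on centring, and 1686 to 2188 and 550 to 830 with 1 library left out, which leaves 1 residual degree of freedom and assumes that the lone library varies like the other type. Regions higher in pgEpiSC and in pEF numbered 26134 and 22961 when regions in at least 2 libraries were tested, and 1882 to 5130 and 1993 to 4974 with 1 library left out. With FDR below 1e-10 the tested regions beside DPPA3 and at the chromosome 1 copy gave no value. No paired analysis was possible because the 2 cell types share only replicate number 1.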

Other observations

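The genes that neighbour NANOG, DPPA3, GDF3 or SLC2A3 in human or mouse were looked up wherever they lie in the pig annotation. Of 20 listed, 14 were measured, and 8 were longer in pgEpiSC, 1 in pEF and 5 did not pass (limma). Over all genes the shares were 31.9% and 10.9%. The median log2 fold change was 1.39, against 0.46 over all genes. Centring gave 7 longer in pgEpiSC and 1 in pEF, and leaving out islands under 2-fold gave 3 and 1. Some of these genes, among them APOBEC1, NANOGNB and MFAP5, are neighbours already counted in the stretch above. A2ML1, a protease inhibitor gene, had 39.3 and 38.7 kb in pgEpiSC, against 1.2 and 1.6 kb in pEF (log2 fold change 4.06; limma, adjusted p = 0.00314), and it did not pass with islands under 2-fold left out (adjusted p = 0.104). PHC1, a Polycomb subunit gene, was covered over its whole window of 35.3 kb in both pgEpiSC libraries, against 5.23 and 6.03 kb in pEF. A2M, a protease inhibitor gene of the same family as A2ML1, went the other way. It had 0 kb in both pgEpiSC libraries, against 7.2 and 18.8 kb in pEF (log2 fold change -3.67, limma adjusted p = 0.0195). RIMKLB, a ligase gene, had 39.7 and 45.5 kb in pgEpiSC, against 19.6 and 37.9 kb in pEF, and did not pass (adjusted p = 0.280). A2M and RIMKLB were chosen after their values were seen. CLEC4E, a C-type lectin gene of myeloid cells, had no island in any of the 4 libraries.

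Markers of other cell types were mixed, where 31.9% of all genes were longer in pgEpiSC and 10.9% in pEF (limma). Of 6 trophectoderm and amnion markers, 0 were longer in pgEpiSC and 2 in pEF, and CDX2 had no island in any library. Of 5 hypoblast and endoderm markers, 2 were longer in pgEpiSC, GATA4 and FOXA2, and SOX17 had no island in any library. None of 3 neural and none of 3 blood markers passed. Of 3 endothelial markers PECAM1 and CDH5 were longer in pgEpiSC while KDR had no island in any library (limma for each list). On centring, 2 hypoblast and endoderm markers and 1 endothelial marker were longer in pgEpiSC. With islands under 2-fold left out, 0 markers of either list were longer in pgEpiSC and 1 of each was longer in pEF.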
